A study of Capra hircus with 20 samples.

Results

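The genes described here are 10 angiogenic growth factors and receptors, taken from the mRNA table by their symbols: the ligands VEGFA, VEGFB, VEGFC, VEGFD, ANGPT1, ANGPT2 and ANGPTL2 and the receptors KDR, FLT1 and NRP1. All 10 were found, as 19 of the 43766 transcripts and 10 of the 20587 genes, and the transcripts of a gene were summed. RNA was sequenced from cultured goat cells in 4 groups of 5 libraries: intramuscular preadipocytes (IMPA) and intramuscular adipocytes (IMA) from the longissimus dorsi, and subcutaneous preadipocytes (SPA) and subcutaneous adipocytes (SA) from subcutaneous fat. By the study's methods, all groups were cells of passage 3 from 7-day-old male Jianzhou Daer goats, grown in DMEM/F12 with fetal bovine serum. IMPA and SPA were harvested at the start of induction, IMA and SA after 3 days in the same medium with oleic acid. Values are FPKM, fragments scaled by transcript length and by the mapped reads of the library, so levels of different genes can be compared per length. The labels do not say which animal a replicate number stands for, and p values measure the spread between these libraries.

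The VEGF ligands are secreted proteins that drive the growth of blood and lymph vessels. VEGFA binds the endothelial tyrosine kinase receptors KDR (VEGF receptor 2) and FLT1 (VEGF receptor 1), VEGFB binds FLT1, and VEGFC and VEGFD act mainly on lymphatic vessels through FLT4. NRP1 is a co-receptor that also binds class 3 semaphorins. ANGPT1 activates and ANGPT2 modulates the endothelial receptor TEK, while ANGPTL2 is a related secreted glycoprotein, abundant in fat, that does not bind TEK. In tissue VEGFA and ANGPT1 come largely from parenchymal and stromal cells, while ANGPT2, KDR, FLT1 and TEK are made mainly by endothelial cells. VEGFA is a classical target of the hypoxia-inducible factors.

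A gene entered the tests when its FPKM averaged 1 or more across the 20 libraries, which held for 11432 genes and for 7 of the 10 members. VEGFD, KDR and FLT1 were below that level and are given as values. Summed FPKM of the mRNA table lay between 373889 and 413880 per library, and the files do not give the fragments counted for each gene. The intramuscular libraries held skeletal muscle transcripts at high levels. The 9 matched muscle markers, of 10 listed, summed to between 2630 and 3015 FPKM in IMPA, between 9017 and 9604 in IMA and between 6.59 and 19.6 in the subcutaneous libraries, of which SPA1 was the highest. MYOG, the transcription factor of differentiating myoblasts, had 649 ± 66.9 FPKM (SD, n = 5) in IMPA. Of the 7 matched adipocyte markers, PPARG, ADIPOQ, PLIN1, LPL and DGAT2 were at most 1.26, 0.596, 0.438, 1.61 and 0.907 FPKM in any library. CEBPA, a transcription factor of adipogenesis, lay between 3.06 and 9.85 FPKM and was highest in IMPA, and the lipid droplet protein CIDEC lay between 3.61 and 5.42 FPKM in the subcutaneous libraries and under 0.59 FPKM in the intramuscular ones. Fewer cells of a type and less RNA per cell cannot be told apart in such bulk libraries. By the study's alignment summary, every IMPA library had a larger share of mapped reads than every library of the other groups. Every SPA library and every IMA library also had a larger share than every SA library.

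VEGFA (gene 100860957) was the most abundant member. It had 91.4, 122, 69.8, 81.1 and 74.7 FPKM in IMPA1 to IMPA5, and 128, 146, 96.7, 133 and 131 FPKM in IMA1 to IMA5. In the subcutaneous cells it had 252, 272, 286, 282 and 282 FPKM in SPA1 to SPA5, and 152, 138, 137, 146 and 137 FPKM in SA1 to SA5. The order was thus SPA, SA, IMA and IMPA, with SPA apart from all other libraries, while SA and IMA overlapped, as did IMA and IMPA. VEGFA was up-regulated in IMA vs. IMPA, from 87.8 ± 20.7 to 127 ± 18.1 FPKM (SD, n = 5; log2 fold change of FPKM + 1, 0.54 ± 0.14 SE, limma adjusted p = 0.0063). It was down-regulated in SA vs. SPA, from 275 ± 13.7 to 142 ± 6.47 FPKM (log2 fold change -0.95 ± 0.04, adjusted p = 3.3e-09), 1.94-fold lower. The difference of these changes, tested as an interaction over the 20 libraries, was 1.49 ± 0.16 on the log2 scale (limma adjusted p = 8.2e-08). Before induction VEGFA was 3.13-fold lower in IMPA than in SPA (log2 fold change -1.66 ± 0.12, adjusted p = 5.7e-08). After it, IMA and SA differed by -0.18 on the log2 scale, with a 95% interval from -0.36 to 0.01 (adjusted p = 0.079).

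The share of mapped reads tended to move opposite to VEGFA in the intramuscular cells. IMPA2, with the highest VEGFA of its group, had the lowest mapped share of that group, and IMA3, with the lowest VEGFA, the highest. With the mapped share as a covariate, the IMA vs. IMPA difference of VEGFA was -0.89 ± 0.26 (limma adjusted p = 0.067), the IMPA vs. SPA difference was -0.22 (adjusted p = 0.70) and the interaction was 0.36 (adjusted p = 0.22). The SA vs. SPA difference was -1.06 (adjusted p = 5.1e-06) in that fit. In the IMA vs. SA comparison VEGFA was then 0.26 higher in IMA (adjusted p = 0.026). Called genes of the IMA vs. IMPA comparison fell from 6867 to 776 with this covariate. The mapped share does not overlap between the groups of any of these comparisons, IMA vs. SA included.

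**Figure D1:**
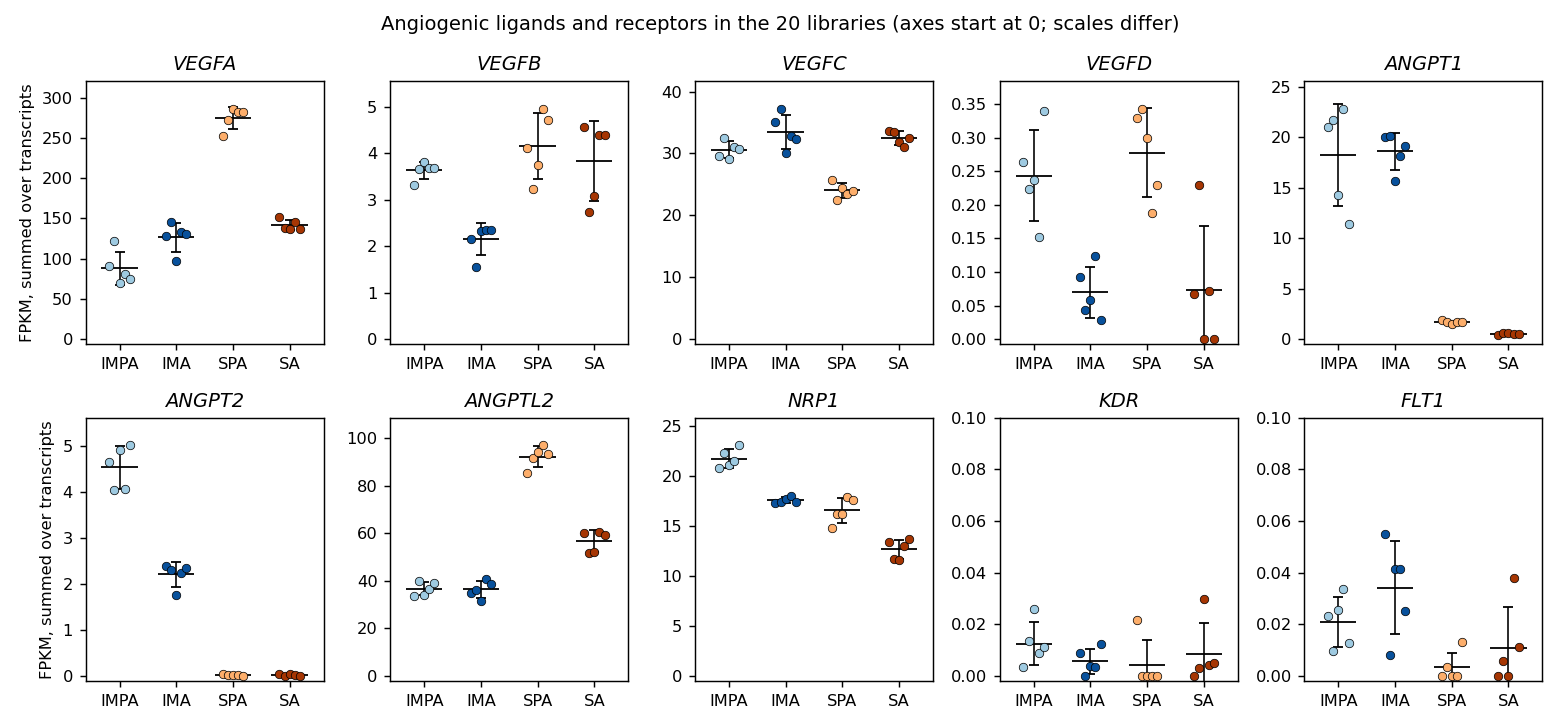
FPKM of the 10 members, summed over transcripts, in each library (points), with the group mean (line) and SD (error bar), n = 5 libraries per group. VEGFA was highest in SPA, between 252 and 286 FPKM, and ANGPT1 and ANGPT2 were high in the intramuscular groups, while KDR and FLT1 stayed under 0.06 FPKM in all 20 libraries.

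VEGFC (gene 102189826), the lymphangiogenic ligand, was the second VEGF ligand by level. It had 29.6, 32.5, 29.1, 31.1 and 30.8 FPKM in IMPA1 to IMPA5, and 35.1, 37.2, 30.1, 32.8 and 32.4 FPKM in IMA1 to IMA5. It had 25.7, 22.5, 24.4, 23.5 and 24.0 FPKM in SPA1 to SPA5, and 33.7, 33.5, 31.8, 31.0 and 32.5 FPKM in SA1 to SA5. SPA lay below every other library, and the other groups overlapped in neighbouring pairs. VEGFC was up-regulated in SA vs. SPA, opposite in direction to VEGFA, from 24.0 ± 1.20 to 32.5 ± 1.15 FPKM (SD, n = 5; log2 fold change 0.42 ± 0.04 SE, limma adjusted p = 2.9e-06). In IMA vs. IMPA the log2 difference was 0.12 ± 0.05 with an adjusted p of 0.066, which missed the threshold. It passed with all 4 groups in the fit (limma adjusted p = 0.033), with the replicate number as a block (0.030), without IMA3 (0.016) and without IMPA2 (0.046). In IMPA vs. SPA the log2 difference was 0.34 (limma adjusted p = 1.3e-05), and 0.54 with the mapped share as a covariate (adjusted p = 0.057). The change was larger in the subcutaneous cells (interaction -0.30 ± 0.07, limma adjusted p = 0.0011). As a share of the 4 VEGF ligands' FPKM, VEGFC made up 7.94% in SPA and 18.2% in SA, against 25.5% in IMPA and 20.8% in IMA.

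VEGFB (gene 102189099), a ligand of FLT1 tied to fatty acid handling in muscle and heart, was low. It had 3.32, 3.67, 3.82, 3.67 and 3.69 FPKM in IMPA1 to IMPA5, and 2.15, 1.56, 2.33, 2.36 and 2.35 FPKM in IMA1 to IMA5. It was down-regulated in IMA vs. IMPA without overlap (log2 fold change -0.56 ± 0.08 SE, limma adjusted p = 5.7e-05), and IMA was lower than SA as well (log2 fold change -0.61 ± 0.12, adjusted p = 0.00038). In the subcutaneous cells it ranged from 3.22 to 4.96 FPKM in SPA and from 2.74 to 4.57 FPKM in SA, and the groups overlapped (log2 difference -0.10, 95% interval -0.38 to 0.18, adjusted p = 0.54). The interaction was -0.46 ± 0.16 (limma adjusted p = 0.016). When the mapped share was a covariate, the IMA vs. IMPA difference was -0.33 (limma adjusted p = 0.50) and the interaction -0.50 (adjusted p = 0.35). In IMPA vs. SPA the log2 difference was -0.14 (95% interval -0.33 to 0.04, adjusted p = 0.14), and without SPA2 it was -0.21 (adjusted p = 0.018).

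VEGFD (gene 102185645), the other lymphangiogenic ligand, was between 0.153 and 0.340 FPKM in IMPA and between 0.0286 and 0.124 FPKM in IMA, without overlap. It was between 0.188 and 0.344 FPKM in SPA and at most 0.230 FPKM in SA, where SA3 and SA5 were listed at 0. Its group means were 0.244, 0.0695, 0.278 and 0.0738 FPKM in IMPA, IMA, SPA and SA. It took at most 0.311% of the VEGF ligands' FPKM in any library.

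The receptors fell into 2 classes, NRP1 well measured and KDR and FLT1 near 0. KDR (gene 100860836) reached 0.0298 FPKM at most, in SA3, and was listed at 0 in 6 of the 20 libraries. FLT1 (gene 100860837) reached 0.0550 FPKM at most, in IMA1, and was listed at 0 in 5 libraries. The other endothelial receptors listed beside the members were low too. FLT4, the VEGFC receptor, did not exceed 0.0182 FPKM and TIE1 not 0.0290 FPKM, while TEK lay between 0.150 and 0.409 FPKM. Of the 12 endothelial markers, 2 reached a mean of 1 FPKM: EGFL7, a secreted vascular protein, and ERG, an ETS transcription factor. The defining markers PECAM1, CDH5, VWF and ROBO4 were at most 0.380, 0.111, 0.531 and 0.0387 FPKM in any library. EMCN averaged 0.653 FPKM in IMPA and 0.443 FPKM in IMA and was at 0 in all 10 subcutaneous libraries. CLDN5 averaged 0.215 FPKM in IMPA and 0.129 FPKM in IMA and was at most 0.0604 FPKM in any subcutaneous library. PECAM1, CDH5 and VWF went the other way, with higher means in SPA than in IMPA and in SA than in IMA. The list summed to between 9.50 and 11.6 FPKM in IMPA, 9.33 and 12.5 in IMA, 8.07 and 9.71 in SPA and 10.9 and 13.1 in SA.

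NRP1 (gene 102175037), the VEGF and semaphorin co-receptor, was the one member receptor expressed above 1 FPKM. It had 20.8, 22.3, 21.1, 21.5 and 23.0 FPKM in IMPA1 to IMPA5, and 17.2, 17.4, 17.7, 18.003 and 17.4 FPKM in IMA1 to IMA5. It had 14.8, 16.2, 16.2, 17.9 and 17.6 FPKM in SPA1 to SPA5, and 13.4, 11.7, 11.6, 12.9 and 13.6 FPKM in SA1 to SA5. The order was IMPA, IMA, SPA and SA, and IMA and SPA were the only neighbours that overlapped. NRP1 was down-regulated in IMA vs. IMPA (log2 fold change -0.29 ± 0.04 SE, limma adjusted p = 3.7e-05) and in SA vs. SPA (log2 fold change -0.36 ± 0.06, adjusted p = 0.00033). A difference between these changes was not detected (interaction 0.07, 95% interval -0.08 to 0.22, limma adjusted p = 0.42). The intramuscular cells had more NRP1 at both stages, by 0.38 ± 0.05 before and 0.44 ± 0.05 after induction on the log2 scale (limma adjusted p = 2.4e-05 and 2.4e-06). With the mapped share as a covariate, the IMA vs. IMPA difference was -0.28 (limma adjusted p = 0.22) and that of IMPA vs. SPA 0.51 (adjusted p = 0.15).

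ANGPT1 (gene 102189773), the agonist of TEK, separated the cell types. It had 21.0, 21.7, 14.3, 22.8 and 11.4 FPKM in IMPA1 to IMPA5, and 20.02, 20.1, 15.7, 18.2 and 19.1 FPKM in IMA1 to IMA5. It had 1.87, 1.69, 1.48, 1.67 and 1.67 FPKM in SPA1 to SPA5, and 0.415, 0.572, 0.587, 0.463 and 0.533 FPKM in SA1 to SA5. IMPA3 and IMPA5, the low libraries of their group, had its highest mapped shares. ANGPT1 was 10.9-fold higher in IMPA than in SPA by mean FPKM (log2 fold change of FPKM + 1, 2.80 ± 0.16 SE, limma adjusted p = 5.1e-09) and 36.3-fold higher in IMA than in SA (log2 fold change 3.69 ± 0.07, adjusted p = 3.4e-15). It fell in SA vs. SPA without overlap, 3.26-fold by mean FPKM (log2 fold change -0.82 ± 0.05, adjusted p = 4.2e-08). In IMA vs. IMPA the log2 difference was 0.07 ± 0.16 (95% interval -0.29 to 0.43, adjusted p = 0.74), and the interaction was 0.89 ± 0.18 (limma adjusted p = 0.00031). With the mapped share as a covariate the IMA vs. IMPA difference was -1.39 (limma adjusted p = 0.054) and the interaction -0.18 (adjusted p = 0.73). Without IMPA5 the IMA vs. IMPA difference was -0.079 and without IMPA3 -0.0030.

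ANGPT2 (gene 102186656), the context-dependent ligand of TEK, was found at 4.65, 4.04, 4.92, 4.06 and 5.01 FPKM in IMPA1 to IMPA5, and at 2.39, 2.30, 1.75, 2.24 and 2.35 FPKM in IMA1 to IMA5. In the subcutaneous cells no library exceeded 0.0431 FPKM, and SPA5, SA2 and SA5 were listed at 0. It was down-regulated in IMA vs. IMPA, 2.06-fold by mean FPKM and without overlap (log2 fold change -0.79 ± 0.07 SE, limma adjusted p = 3.7e-06). The log2 differences between the cell types were 2.44 ± 0.06 in IMPA vs. SPA (limma adjusted p = 1.6e-12) and 1.65 ± 0.07 in IMA vs. SA (adjusted p = 2.5e-11), and no ratio is given because the subcutaneous values were near 0. ANGPT2 made up 21.0% of the summed FPKM of both angiopoietins in IMPA, with a range of 15.1% to 30.5%, and 10.6% in IMA, with a range of 10.0% to 11.0%. ANGPT2 passed the filter on low values through the intramuscular libraries, so that a difference from the subcutaneous ones was built into its being tested. Its IMA vs. IMPA difference was -0.64 with the mapped share as a covariate (limma adjusted p = 0.18).

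ANGPTL2 (gene 102182603) had 33.7, 39.7, 34.1, 36.5 and 38.9 FPKM in IMPA1 to IMPA5, and 35.0, 36.3, 31.5, 40.6 and 38.7 FPKM in IMA1 to IMA5. It had 85.3, 91.5, 94.1, 97.0 and 93.2 FPKM in SPA1 to SPA5, and 60.3, 51.6, 52.2, 60.7 and 59.1 FPKM in SA1 to SA5. Like VEGFA, it was highest in SPA, and here SA also lay above all intramuscular libraries. It fell in SA vs. SPA, from 92.2 ± 4.34 to 56.8 ± 4.49 FPKM (SD, n = 5; log2 fold change -0.69 ± 0.05 SE, limma adjusted p = 4.5e-07). In IMA vs. IMPA the log2 difference was -0.01 (95% interval -0.16 to 0.14, adjusted p = 0.93), and the interaction was 0.69 ± 0.09 (limma adjusted p = 1.9e-06). ANGPTL2 was lower in the intramuscular cells, 2.52-fold in IMPA vs. SPA and 1.56-fold in IMA vs. SA (limma adjusted p = 1.5e-10 and 1.6e-06). The interaction was 0.31 with the mapped share as a covariate (limma adjusted p = 0.25).

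**Figure D2:**
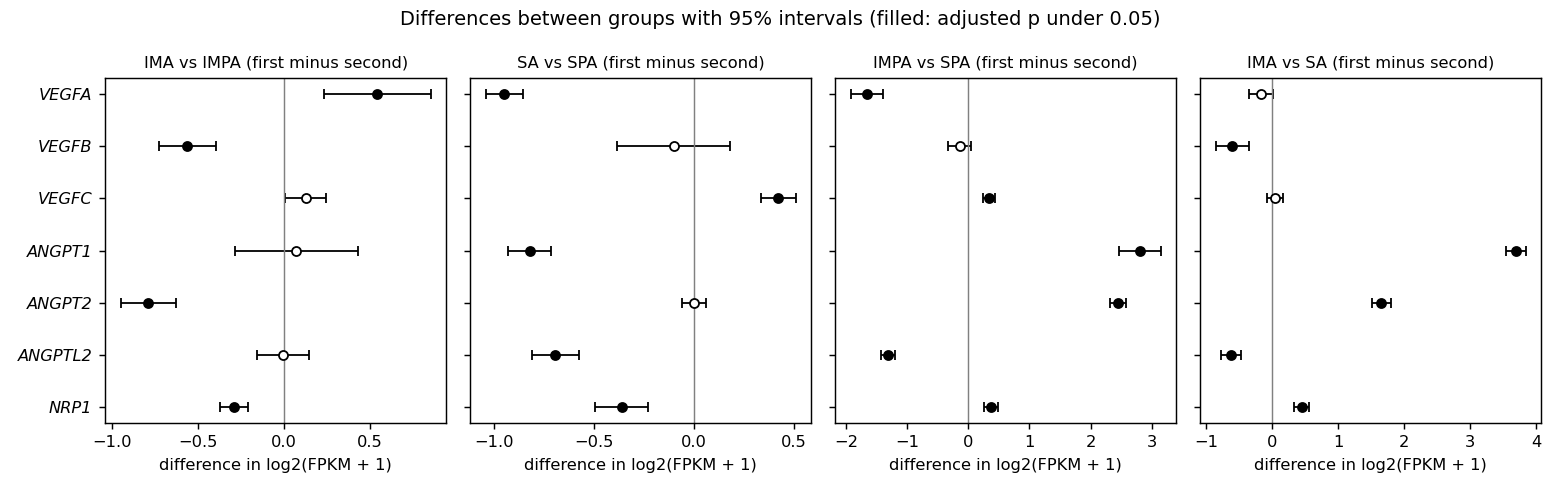
Differences in log2(FPKM + 1) between groups for the 7 tested members, with 95% intervals, in 4 comparisons of 10 libraries each, first group minus second. Filled points had an adjusted p under 0.05. VEGFA lay right of 0 in IMA vs. IMPA and left of 0 in SA vs. SPA, while ANGPT1 and ANGPT2 lay far to the right in both comparisons of the cell types. In the fit with the mapped share as a covariate, which is not drawn, VEGFA was below 0 in IMA vs. IMPA.

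Over the 7 tested members, 4 were called in IMA vs. IMPA, 1 higher and 3 lower, where 60.1% of all tested genes were called. In SA vs. SPA 5 were called, 1 higher and 4 lower, against 52.1% of all genes. Between the cell types 6 were called in IMPA vs. SPA and 5 in IMA vs. SA, against 75.1% and 72.4% of all genes, and the interaction was called for 6, against 55.3%. Of these 6, 3 were higher and 3 lower, against 20.7% and 34.6% of all genes. With 7 members, nothing is read from these counts beyond the single genes. The groups of a comparison did not overlap for 3 members in IMA vs. IMPA (43.5% of all genes), 5 in SA vs. SPA (38.8%), 6 in IMPA vs. SPA (63.4%) and 5 in IMA vs. SA (58.6%). The comparisons share groups with each other. Skeletal muscle markers moved with the intramuscular comparison, 7 of 9 higher and 1 lower in IMA vs. IMPA. All 9 were higher in the intramuscular cells at both stages, where 42.3% and 29.0% of all genes were. MYOD1, MYF5, PAX7, MYOG, DES, TNNT1 and ACTA1 averaged under 1 FPKM in SPA and in SA. They reached the filter through the intramuscular libraries, so that a difference between the cell types was built into their being tested. Markers of proliferation moved with the subcutaneous comparison, all 6 higher in SA, with a sum of 40.9 to 47.2 FPKM in SPA and 220 to 247 FPKM in SA, and 3 of 6 lower in IMA vs. IMPA. All 6 were higher in IMPA than in SPA and lower in IMA than in SA. Of the 6 tested markers of preadipocytes and fibroblasts, 4 fell and 1 rose in SA vs. SPA, and 2 fell in IMA vs. IMPA, while 4 were lower in IMPA than in SPA and 5 lower in IMA than in SA. Both tested endothelial markers were higher in SA vs. SPA (EGFL7 by 0.39 and ERG by 0.30, limma adjusted p = 0.00063 and 0.0029), and neither was called in IMA vs. IMPA. Between the cell types they went opposite ways. ERG was higher by 1.36 in IMPA vs. SPA and by 1.10 in IMA vs. SA (limma adjusted p = 5.0e-08 and 3.0e-07). EGFL7 differed there by -0.53 and -0.80 (limma adjusted p = 1.2e-05 and 1.1e-06). Of 5 tested pericyte markers 3 rose and 1 fell in IMA vs. IMPA and 2 fell in SA vs. SPA, and of 2 tested macrophage and blood markers both rose in the former and 1 fell in the latter. Of the 2 tested adipocyte markers CEBPA fell in both. The part of these markers in the members' differences was not tested.

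VEGFA is annotated with 4 transcripts that overlap in sequence, so that the split of their FPKM is an estimate of the quantification software. All of them were highest in SPA. NM_001287035.1 held 47.4% ± 3.17 (SD, n = 5) of VEGFA in IMPA, 44.9% ± 5.01 in IMA, 44.4% ± 2.53 in SA and 33.4% ± 1.81 in SPA. NM_001287034.1 held 38.1% ± 1.23 in SPA, against 28.3% ± 2.99 in SA, 25.9% ± 2.98 in IMA and 21.99% ± 3.69 in IMPA. In SPA the latter was thus at 96.4 to 113 FPKM and the former at 82.1 to 97.5 FPKM, while in SA they were at 36.5 to 44.6 and 57.3 to 73.1 FPKM. SPA did not overlap any other group in either share. With the most abundant transcript in place of the sum, VEGFA rose by 0.45 in IMA vs. IMPA with an adjusted p of 0.063 in limma's test.

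Of the 4 NRP1 transcripts, XM_018057070.1 held 65.1% to 84.1% of the gene in the IMPA, IMA and SPA libraries and 56.1% to 73.2% in 4 of the 5 SA libraries. In SA1 it was at 0.000118 FPKM, and XM_018057071.1 held 80.7% there, at 10.8 FPKM. The gene's sum in SA1, 13.4 FPKM, was within the range of the other SA libraries. With the transcript XM_018057070.1 alone, the SA vs. SPA difference of NRP1 was -1.21 ± 0.59 SE and was not called (limma adjusted p = 0.14), and that of IMA vs. SA was 1.27 ± 0.57 (adjusted p = 0.079). Of the 4 VEGFB transcripts, XM_018042786.1 was between 0.935 and 1.54 FPKM in IMPA and at most 0.617 FPKM in IMA, where IMA1, IMA3 and IMA4 were listed at 0. The most abundant one, XM_018042785.1, was at 2.22 ± 0.228 FPKM in IMPA and 1.73 ± 0.593 FPKM in IMA, and with it alone VEGFB was not called in that comparison (limma adjusted p = 0.15).

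**Figure D3:**
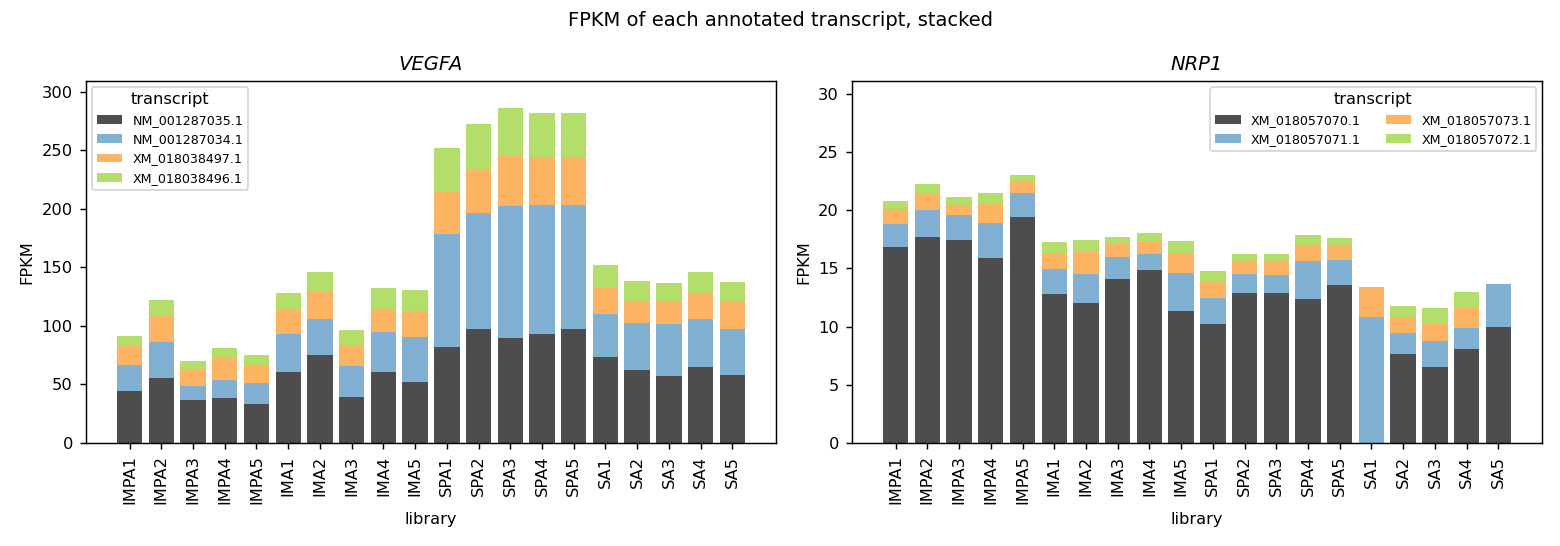
FPKM of each annotated transcript of VEGFA and NRP1 in the 20 libraries, stacked to the gene's sum. In SPA the NM_001287034.1 part of VEGFA was at 96.4 to 113 FPKM, and in SA1 the XM_018057070.1 part of NRP1 was at 0.000118 FPKM.

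Another 22 genes were listed beside the members for the VEGF, angiopoietin and semaphorin pathways, with the TNF receptor TNFRSF1A among them, and 15 were tested. In IMA vs. IMPA 3 rose and 9 fell, where 19.9% and 40.2% of all tested genes did, with a median log2 difference of -0.15 against -0.09 over all genes. ANGPTL4, an inhibitor of lipoprotein lipase, rose from 21.4 ± 6.51 to 47.4 ± 4.50 FPKM (SD, n = 5; log2 fold change 1.16, limma adjusted p = 0.00013). PGF, the placental growth factor that binds FLT1, rose from 0.382 to 1.296 FPKM (log2 fold change 0.73, limma adjusted p = 1.5e-05). PGF reached the filter only through IMA and SPA, where it is high, so a difference between the stages was built into its being tested. The co-receptor NRP2 rose from 23.6 to 32.1 FPKM (0.44, limma adjusted p = 0.00031). SEMA3F, the semaphorin that binds NRP2, fell by 0.72 on the log2 scale, and the semaphorin receptor PLXND1 and the TEK ligand ANGPT4 fell by 0.47 and 0.42. With the mapped share as a covariate, 1 of the 15 rose and 1 fell, where 6.79% of all tested genes were called.

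In SA vs. SPA 5 of the 15 rose and 7 fell, where 26.1% and 26.0% of all genes did, with a median of -0.05 against -0.01. PGF fell from 1.92 to 0.514 FPKM (log2 fold change -0.95, limma adjusted p = 9.5e-07), and ANGPT4 fell by 0.71. SEMA3A, a repulsive ligand of NRP1, rose by 0.70, ANGPTL1 by 0.68 and SEMA3C by 0.59 on the log2 scale. For PGF the interaction was 1.68 (limma adjusted p = 1.9e-10). Since PGF reached the filter only through IMA and SPA, its fall here and its interaction were also built into its being tested. With the mapped share as a covariate, 5 of the 15 rose and 6 fell, where 33.4% of all tested genes were called. The interaction was then called higher for 2 and lower for 3, against 6 and 7 without the covariate. Of all tested genes 18.6% were called for it in that fit.

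Between the cell types, the co-receptors and their semaphorins differed in both directions. In IMPA vs. SPA 6 of the 15 were higher and 8 lower, where 42.3% and 32.9% of all genes were, with a median of -0.28 against 0.05. NRP2 was at 23.6 ± 2.57 FPKM in IMPA and 3.40 ± 0.173 in SPA (SD, n = 5; log2 fold change 2.47, limma adjusted p = 3.6e-12). SEMA3A and the heparan sulfate proteoglycan SDC2 were also higher in IMPA, by 2.34 and 2.19. The log2 difference was -2.74 for ANGPTL1, -1.38 for TNFRSF1A and -1.37 for SEMA3C. In IMA vs. SA 8 were higher and 6 lower, where 29.0% and 43.4% of all genes were, with a median of 0.19 against -0.09. There NRP2 was higher by 2.91, and ANGPTL1 differed by -3.56, at 4.70 ± 0.495 FPKM in IMA and 66.4 ± 5.13 FPKM in SA. With the mapped share as a covariate, 5 of the 15 were higher and 4 lower in IMPA vs. SPA. In IMA vs. SA 7 were then higher and 5 lower. Of all tested genes 21.2% and 54.0% were called in these fits.

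Of 16 genes of the hypoxia pathway, 15 were matched by symbol and 14 tested. In IMA vs. IMPA 8 rose and 3 fell, where 19.9% and 40.2% of all tested genes did, with a median log2 difference of 0.39 against -0.09. In SA vs. SPA 1 rose and 11 fell, where 26.1% and 26.0% of all genes did, with a median of -0.40 against -0.01. EGLN3, an oxygen-sensing prolyl hydroxylase, rose from 6.04 to 17.3 FPKM in IMA vs. IMPA (log2 fold change 1.41, limma adjusted p = 6.8e-06). ANKRD37, a target of HIF1, rose there by 1.26, while in SA vs. SPA it fell by 1.28. BNIP3, a mitophagy receptor, rose there by 0.71, while in SA vs. SPA it fell by 1.02. ADM, the vasodilator peptide adrenomedullin, fell in both comparisons, by 0.89 and 0.77, as did EPAS1 (HIF2 alpha), by 0.61 and 0.95. HIF1A, the oxygen-regulated subunit of HIF1, had 65.2 ± 11.2 FPKM in IMPA, 95.6 ± 9.73 in IMA, 137 ± 1.39 in SPA and 104 ± 7.99 in SA (SD, n = 5), the same order from SPA down to IMPA as VEGFA. The interaction was called for 11 of the 14, 10 of them with the sign of VEGFA, where 55.3% of all genes were called, 20.7% higher and 34.6% lower.

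The mean log2(FPKM + 1) of the 14 hypoxia genes lay between 6.15 and 6.21 in SPA, 5.70 and 5.79 in SA, 5.41 and 5.63 in IMA and 5.08 and 5.47 in IMPA. IMPA2, IMA2 and SPA3 were the highest and IMA3 and SPA1 the lowest of their groups in this mean, as in VEGFA. The lowest IMPA library was IMPA5 in this mean and IMPA3 in VEGFA. In SA the mean was highest in SA4 and lowest in SA2, and VEGFA in SA1 and SA3. A link of VEGFA with these genes was not tested. With the mapped share as a covariate, none of the 14 rose and 4 fell in IMA vs. IMPA by limma's test (0 rose and 4 fell at an unadjusted p under 0.05), while in SA vs. SPA 1 rose and 9 fell. In these fits 6.79% and 33.4% of all tested genes were called. The interaction was called higher for 4 and lower for 1 of the 14 with this covariate, where 18.6% of all tested genes were called.

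**Figure D4:**
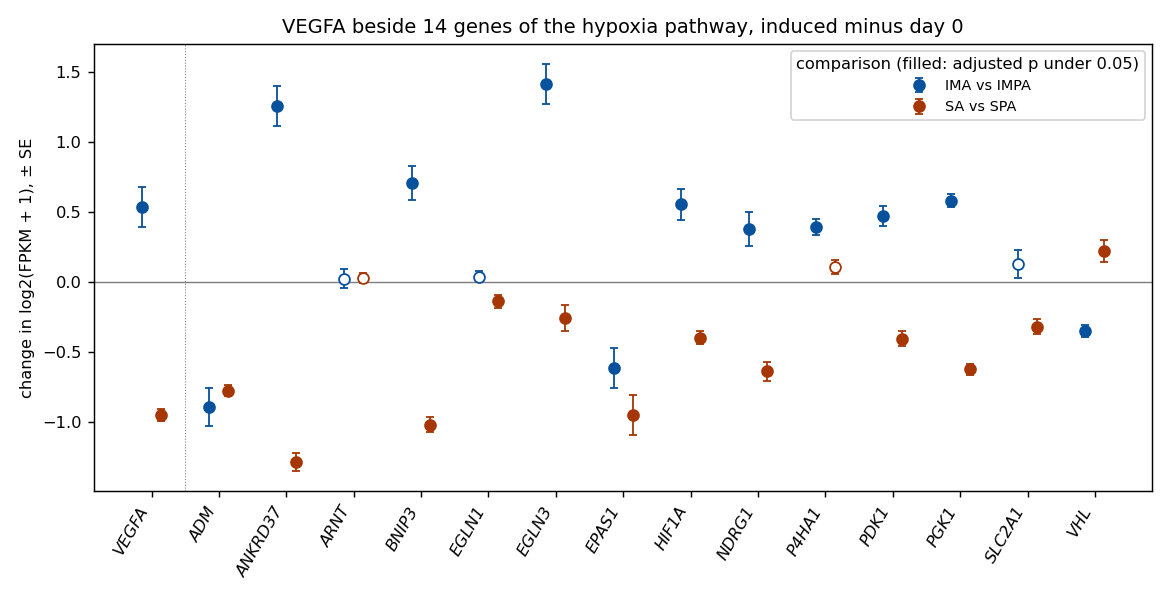
Change in log2(FPKM + 1), with SE, of VEGFA and of the 14 tested hypoxia genes from preadipocytes to adipocytes in the intramuscular (blue) and subcutaneous (red-brown) cells, n = 5 libraries per group. Filled points had an adjusted p under 0.05. In the intramuscular cells 8 hypoxia genes rose and in the subcutaneous cells 11 fell. In the fit with the mapped share as a covariate, which is not drawn, none of the 14 rose in the intramuscular cells.

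For the members whose group means spanned at least 1 on the log2 scale, the genes with the most similar pattern were found by the root mean square difference of log2(FPKM + 1) over the 20 libraries, each gene centred on its own mean. For VEGFA these were JUNB at 0.15, ARRDC4 at 0.18 and SAT1 at 0.19, an AP-1 subunit, an arrestin-domain protein and the spermidine acetyltransferase. JUNB had group means of 62.6 FPKM in IMPA, 82.5 in IMA, 172 in SPA and 101 in SA. For ANGPT1 they were DCLK1 at 0.31, TSPAN7 at 0.33 and CDKN1C at 0.35, and for ANGPT2 TSPAN15 at 0.12, SHD at 0.14 and SIPA1L2 at 0.15. TSPAN15 had group means of 4.04 FPKM in IMPA, 1.77 in IMA, 0.0333 in SPA and 0.00706 in SA. For ANGPTL2 they were LOC102187810, TUB and TRANK1, all at 0.10. VEGFB, VEGFC and NRP1 spanned less than 1.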

How the data were processed

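The 20 libraries were strand-specific RNA libraries. The authors aligned the reads to the goat genome (assembly ARS1) with HISAT2 2.0.4 and deposited FPKM per transcript and library, for which the methods name StringTie 1.3.1, Ballgown and Cuffdiff. No counts were used, so no interval for counting error can be given, and an FPKM of 0 cannot be told apart from a level below the depth. A single newly assembled lncRNA held between 20.0% and 29.1% of all FPKM in a library.

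Transcripts of the mRNA table were summed per symbol (6 symbols joined a pair of gene IDs, none of them a member) and used as log2(FPKM + 1) without further scaling. Genes averaging 1 FPKM or more were tested with limma 3.58.1 under R 4.3.3, with a variance trend, in fits of 10 libraries, and the interaction in 20. Two-sided p values were corrected for the 11432 genes tested (Benjamini-Hochberg), and an adjusted p under 0.05 was called. Adjusted p values of single genes come from limma. Tables and figures were made in Python 3.11.15 with numpy 2.4.6, pandas 2.3.3 and matplotlib 3.10.9. Libraries of one group correlated between 0.986 and 0.996 across tested genes, and no pair was identical. The fit was tested on simulated data.

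The members and gene lists were chosen with earlier results of these data known. All 10 members are named. Of the other pathway and hypoxia genes, at most the 6 called genes with the largest change per list and comparison are named. HIF1A, FLT4, TEK, TIE1 and single markers were named for their role, after their values were seen. Listed markers were endothelial, pericyte, macrophage and blood, skeletal muscle, adipocyte, preadipocyte and fibroblast, and proliferation genes. Each result was recomputed with the filter lowered to 0.1 FPKM or dropped, with a pseudocount of 0.1, with upper-quartile scaling or equal mRNA sums, without the variance trend, in a fit of all 4 groups, with replicate numbers as blocks, with the share of mapped reads (from the study's alignment summary) as a covariate, with only the most abundant transcript per gene, and without each library, or without both SPA1 and SA5. Sequences and genome coordinates of the members were not used here.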

Additional observations from a re-analysis of the deposited data

Results flagged for a closer look

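For 6 members the change from preadipocytes to adipocytes differed between the intramuscular and the subcutaneous cells by limma's interaction test, which called 55.3% of all tested genes. The intramuscular minus the subcutaneous change was 1.49 for VEGFA, 0.89 for ANGPT1, 0.69 for ANGPTL2, -0.30 for VEGFC, -0.46 for VEGFB and -0.79 for ANGPT2 on the log2 scale. For ANGPT2, at most 0.0431 FPKM in the subcutaneous cells, this restates the IMA vs. IMPA change, since no fall could be measured there. With the mapped share as a covariate, the interaction was not called for VEGFA, VEGFB, ANGPT1 and ANGPTL2, and it changed sign for ANGPT1. In that fit 18.6% of all tested genes were called. Tissue of origin, muscle transcripts and the mapped share differ between these cells as well and cannot be told apart from the depot.

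In 2 of 28 groups of 5 libraries a single library stood apart from the others, where chance gives about 1 in 20. IMA2 had 1.56 FPKM of VEGFB and IMA3 had 1.75 FPKM of ANGPT2, each the lowest of its group. VEGFB and ANGPT2 were called in IMA vs. IMPA also when any one library was left out.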

How the results depend on the processing

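Of the members' results, 405 of 420 kept direction and call when 1 library was left out. The number of members called then ranged from 4 to 5 in IMA vs. IMPA, 6 to 7 in IMPA vs. SPA and 5 to 6 in IMA vs. SA, and was 5 in SA vs. SPA and 6 for the interaction. Of all tested genes, 55.7% to 60.2%, 72.9% to 74.7%, 69.7% to 71.6%, 47.6% to 51.4% and 53.0% to 55.8% were called in these fits, in the same order. Differences near 0 changed sign: ANGPT1 in IMA vs. IMPA (-0.079 to 0.157), ANGPTL2 in IMA vs. IMPA (-0.047 to 0.042, and 0.0058 with upper-quartile scaling) and ANGPT2 in SA vs. SPA (-0.0050 to 0.012). VEGFA in IMA vs. SA was called without IMA2 (-0.23, limma adjusted p = 0.026).

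With the mapped share as a covariate, limma called 0 members in IMA vs. IMPA (0 higher and 4 lower at an unadjusted p under 0.05), 3 in IMPA vs. SPA and 2 for the interaction. Of all tested genes, 6.79%, 21.2% and 18.6% were called in these fits. IMA vs. IMPA reversed for VEGFA (-0.89), VEGFC (-0.29) and ANGPT1 (-1.39), IMA vs. SA for VEGFA (0.26), and the interaction for ANGPT1 (-0.18) and NRP1 (-0.024). With the most abundant transcript 2 members were called in IMA vs. IMPA and 3 in IMA vs. SA. Calls over all genes fell as well, to 5111 and 6648 of 11080 tested genes in these fits. With summed transcripts they were 6867 and 8277 of 11432. NRP1 was also no longer called in SA vs. SPA with its most abundant transcript. The causes were not tested.

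Same-numbered libraries did not deviate together (correlations from 0.042 to 0.121 for IMA and IMPA, and from -0.242 to 0.122 for SA and SPA), so the numbers were not taken as pairs. With the replicate block 5 members were called in IMA vs. IMPA, VEGFC being added (0.12, adjusted p = 0.030), and no other member's call changed. In that fit 59.7% of all tested genes were called. Equal mRNA sums moved the share of higher genes among all calls of SA vs. SPA from 50.1% to 36.5%. The fragments counted for each gene were not used here, which limits VEGFD, KDR, FLT1 and subcutaneous ANGPT2 most.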
